A study of Mus musculus with 6 samples.

Results

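The 9 genes C3, Cfb, C2, C4b, Cfp, Serping1, Cd55, C3ar1 and C5ar1 encode complement components outside C1q, complement regulators and anaphylatoxin receptors. They were taken by gene symbol from a table of 23518 genes, and all 9 passed the filter on low values that left 15049 genes for testing. The table holds RNA sequencing of mouse ear skin in 3 HdR and 3 WT samples. The HdR genotype carries HOIL1 ΔRING1, a form of HOIL1 without the RING1 domain, and WT is the wild type. HOIL1, the product of Rbck1, is a subunit of the linear ubiquitin chain assembly complex. Ears of both genotypes received 10 mg of a cream with 5% imiquimod, a Toll-like receptor agonist that induces psoriasis-like inflammation, and were sampled on day 1. No untreated skin was analysed here, so the comparison describes genotypes under imiquimod only. The sources used here state neither sex, age and strain background nor the cells that carry the deletion. The labels number the samples within each genotype but do not state separate animals, so p values measure the spread between these samples.

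Complement is a cascade of plasma and tissue proteins that coats targets with fragments of C3 and forms lytic pores. Recognition by C1q or lectins leads to a C3 convertase made from C4 and C2, and the alternative pathway forms its own convertase from C3b and factor B, which properdin stabilises. Regulators on cell surfaces and in fluid take these convertases apart, and the small fragments C3a and C5a attract and activate leukocytes through their receptors. The liver makes most plasma complement, while skin keratinocytes, fibroblasts and macrophages also express complement genes.

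Levels are normalised coverage, in aligned bases of a gene per Mb of scaled library (bases per Mb), as mean ± SD with n = 3 per genotype. A log2 change is HdR minus WT in log2(bases per Mb + 1), tested with limma across all genes. Rbck1 had 23.9, 13.0 and 19.7 bases per Mb in HdR samples, against 66.6, 55.1 and 64.1 bases per Mb in WT samples (log2 change -1.70, SE 0.22, limma adjusted p = 0.00438). Library totals were 4433 to 5264 Mb in HdR and 5038 to 5966 Mb in WT. At an adjusted p under 0.05 limma called 30.6% of all genes tested, 12.7% higher and 17.9% lower in HdR (1904 and 2701 genes), and the median change over all genes was -0.13. That median was -0.41 with scaling to library totals (917 genes higher, 4305 lower) and -0.01 with quantile normalisation (2363 higher, 2084 lower). Libraries also differed by transcript length: relative to the mean of all libraries, coverage changed by -0.125, -0.272 and -0.0805 log2 units per doubling of length in HdR samples and by 0.190, 0.0404 and 0.247 in WT samples (two-sided exact permutation test, p = 0.1, which is the lowest value possible with 3 samples per genotype). Genotype and length trend cannot be told apart, so values after removal of that trend are given where they add or end a call of a gene described.

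C3 rose and C2 fell in HdR skin, and the other 7 genes did not pass. These 2 calls among 9 genes stand beside the 30.6% of all genes called, so their number is near the background. The median log2 change of the 9 genes was 0.13. In 3 genes (C3, Cd55 and C5ar1) every HdR sample lay above every WT sample, and in 2 (C2 and Serping1) every HdR sample lay below. Over all genes tested 51.5% showed no overlap, 20.9% with HdR above and 30.7% with HdR below. With the replicate number as a block, limma called 4 of the 9 genes higher (C3, Cfp, Cd55 and C5ar1) and 3 lower (C2, C4b and Cfb), beside 18.3% and 27.2% of all genes (45.5% in either direction). With the length trend removed, C3 and Cd55 were higher and C2 and Serping1 lower, beside 10.9% and 8.48% of all genes (19.4% in either direction). Median-of-ratios scaling gave 3 of the 9 higher and 1 lower, beside 14.4% and 15.9% of all genes (30.3% in all). Scaling to library totals gave 0 higher, also at an unadjusted p under 0.05, and 3 lower (C2, C4b and Serping1), beside 6.1% and 28.6% (34.7% in all).

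**Figure D1:**
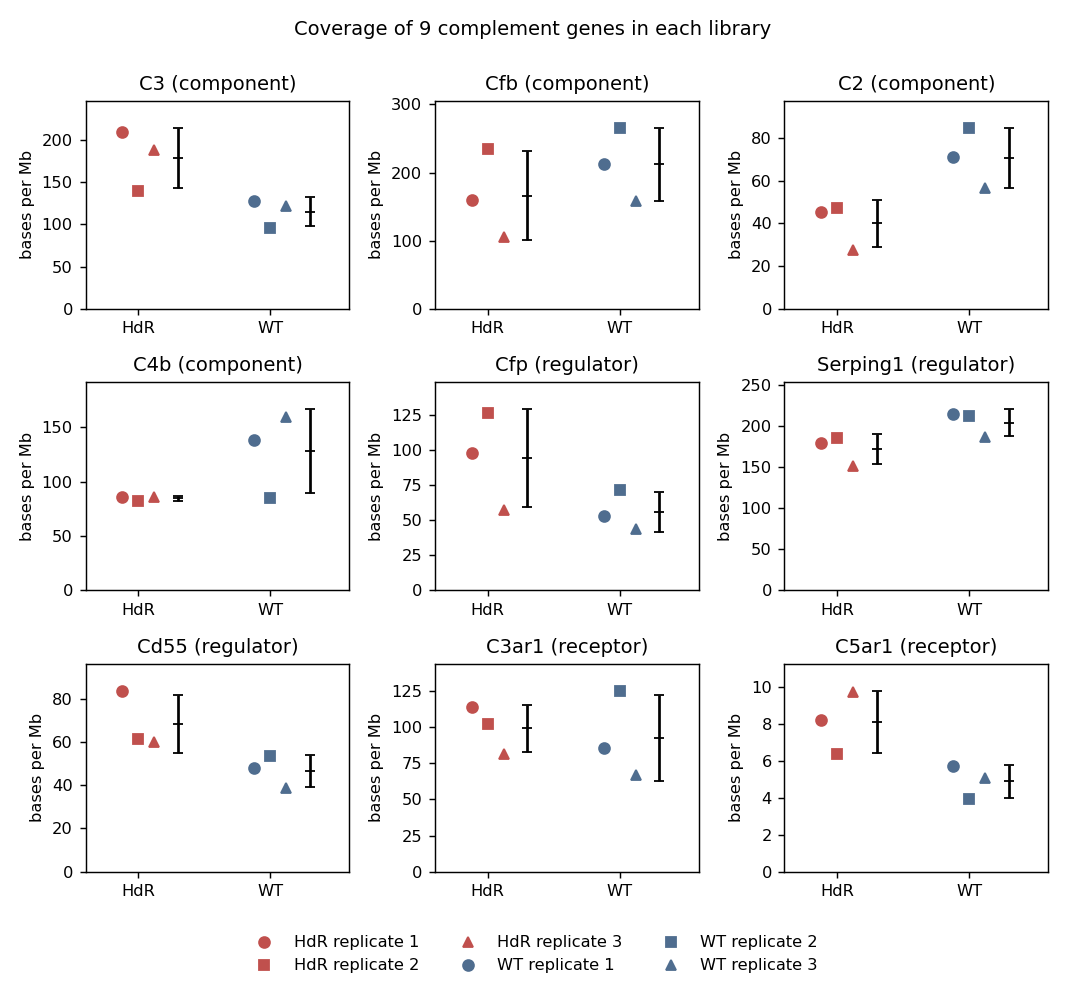
Coverage of the 9 complement genes in bases per Mb (vertical axes, starting at 0) in each of 3 HdR (left) and 3 WT (right) samples, with the mean and SD beside the points. The HdR samples of C3 lie between 140.1 and 209, above the WT samples at 95.4 to 128, and the HdR samples of C2 lie between 27.3 and 47.0, below the WT samples at 56.3 to 84.4.

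The sequences before the gene starts are shown for C3 and Cd55. In both, every HdR sample lay above every WT sample, and the RefSeq and GENCODE starts coincide. For C5ar1 the RefSeq start lies inside the GENCODE gene, so most of its window does too, and it is not shown. They are the 250 bases before the annotated start in RefSeq on GRCm38, at chr17:57228137-57228386 for C3 and chr1:130462745-130462994 for Cd55, both on the minus strand and written 5′ to 3′. Capitals mark matches on either strand to a loose form of the NF-kB motif, GGG and CC with any 5 bases between them, and to TTNNGNAA, a C/EBP motif.
C3: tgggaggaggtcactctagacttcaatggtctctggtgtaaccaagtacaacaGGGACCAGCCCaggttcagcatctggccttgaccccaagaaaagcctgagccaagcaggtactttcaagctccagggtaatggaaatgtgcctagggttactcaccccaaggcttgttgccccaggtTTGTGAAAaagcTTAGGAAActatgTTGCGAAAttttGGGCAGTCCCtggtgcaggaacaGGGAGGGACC
Cd55: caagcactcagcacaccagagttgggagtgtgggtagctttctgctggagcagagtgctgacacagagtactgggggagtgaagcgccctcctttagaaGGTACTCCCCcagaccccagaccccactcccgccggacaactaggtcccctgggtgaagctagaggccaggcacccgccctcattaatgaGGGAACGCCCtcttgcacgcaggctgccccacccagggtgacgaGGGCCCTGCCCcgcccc
The C3 sequence holds 3 separate C/EBP matches, the nearest at -45 to -38 from the start, and 4 NF-kB matches in 3 stretches, of which the overlapping pair starts at -197 and -196. The Cd55 sequence holds 4 NF-kB matches in 3 stretches, with an overlapping pair, and no C/EBP match. In windows of the same length 45.8% of 32851 annotated starts hold the NF-kB pattern and 36.8% the C/EBP pattern, so a match is common and is a description only. The interferon patterns TTCNNNGAA (GAS, in 7.02% of all windows) and GAAA repeated after any 2 bases (ISRE, in 2.98%) were in 0 of the 5 members found in the promoter table, which also held Cfp, C3ar1 and C5ar1. RefSeq promoters for Cfb, C2, C4b and Serping1 were not in that table.

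Among the components, C3, the protein on which all activation pathways converge, was higher in HdR skin. C3 (ENSMUSG00000024164.15, GRCm38 chromosome 17, 57203970 to 57228136, minus strand) had 209, 140.1 and 188 bases per Mb in HdR samples, against 128, 95.4 and 122 bases per Mb in WT samples. The genotypes did not overlap, and replicate 2 was the lowest of its genotype in both. The means were 179 ± 35.4 in HdR and 115 ± 17.2 in WT, a ratio of 1.56 and a log2 change of 0.63 (SE 0.20, limma adjusted p = 0.0428). The C3 transcript is long, at 5136 nt, and with the length trend removed the change was 1.02 (limma adjusted p = 0.00731). C3 passed without HdR replicate 2 (limma adjusted p = 0.0369) and did not pass without any one of the other libraries (adjusted p = 0.0707 to 0.130) or with scaling to library totals (0.31, adjusted p = 0.357), with quantile normalisation (0.51, adjusted p = 0.0916) or without the filter on low values (adjusted p = 0.0794).

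C2, the serine protease of the classical and lectin C3 convertase, was lower in HdR skin. C2 (ENSMUSG00000024371.14, chromosome 17, 34862604 to 34898265, minus strand) had 45.5, 47.0 and 27.3 bases per Mb in HdR samples, against 70.8, 84.4 and 56.3 bases per Mb in WT samples. Every HdR sample was below every WT sample, with means of 39.9 ± 11.0 in HdR and 70.5 ± 14.1 in WT, a ratio of 0.566. The log2 change was -0.83 (SE 0.24, limma adjusted p = 0.0341) and -0.79 after length trend removal (limma adjusted p = 0.0437). C2 kept its call without WT replicate 3 (limma adjusted p = 0.0480) and lost it without any one of the other libraries (adjusted p = 0.0524 to 0.108), with changes from -0.97 to -0.58.

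Cfb encodes factor B, the homologous protease of the alternative pathway, and its gene starts 85 bases beyond the end of C2 on the same strand (ENSMUSG00000090231.10, chromosome 17, 34856374 to 34862518). Cfb had 159, 235 and 105 bases per Mb in HdR samples, against 213, 265 and 158 bases per Mb in WT samples. The genotypes overlapped, and in both the highest sample was replicate 2 and the lowest replicate 3, an order also seen in C2. The log2 change of -0.40 did not pass (95% confidence interval -1.07 to 0.28, limma adjusted p = 0.325), whereas with the replicate block it did (limma adjusted p = 0.0431). The annotated gene Gm20547 overlaps Cfb by 6107 bases and C2 by 19439 bases on their strand, and Zbtb12 overlaps C2 on the other strand, so reads of overlapping genes could have been split or shared. The transcripts of Cfb and C2 share 0 stretches of 100 bases.

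C4b, whose product is cleaved to start the classical convertase, had 86.1, 82.0 and 85.6 bases per Mb in HdR samples, against 138, 85.0 and 159 bases per Mb in WT samples. The HdR samples were close to each other, while WT replicate 2 stood at their level and the other WT samples were higher. The log2 change was -0.54 (limma adjusted p = 0.0951), and it passed without WT replicate 2 (-0.79, limma adjusted p = 0.00729) and with the replicate block (limma adjusted p = 0.0387). After length trend removal from this 5379 nt transcript the change was -0.12 (95% confidence interval -0.54 to 0.29, limma adjusted p = 0.647). C4b (ENSMUSG00000073418.4, chromosome 17, 34728380 to 34743882) and its copy C4a, 65209 bases away, share 16.5% of their 100-base stretches, so their values are uncertain. C4a had 4.56, 2.94 and 4.45 bases per Mb in HdR samples and 4.98, 2.13 and 4.88 bases per Mb in WT samples, which overlapped.

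Ratios of 2 genes within a library do not depend on how libraries are scaled. They were chosen after the values were seen and are given without a test. The length trend cancels in them only between transcripts of like length, such as C3 (5136 nt) and C4b (5379 nt), and not between C3 and C2 (2641 nt) or Cfb (2751 nt). C3 over C2 was 4.59, 2.98 and 6.90 in HdR samples, against 1.80, 1.13 and 2.17 in WT samples. C3 over C4b was 2.43, 1.71 and 2.20 in HdR samples, against 0.923, 1.12 and 0.765 in WT samples. Neither ratio overlapped between the genotypes, which for both follows from the levels of these genes already given. C3 over Cfb was 1.32, 0.595 and 1.80 in HdR samples and 0.598, 0.359 and 0.770 in WT samples, where HdR replicate 2 fell among the WT values. Cfb over C2 was 3.49, 5.01 and 3.84 in HdR samples, against 3.01, 3.15 and 2.82 in WT samples. This last ratio was nearly constant in WT (2.99 ± 0.166) and higher in each HdR sample. Of the other ratios formed, C4b over C4a and C3ar1 over C5ar1 overlapped between the genotypes, and Cd55 over C2 did not.

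**Figure D2:**
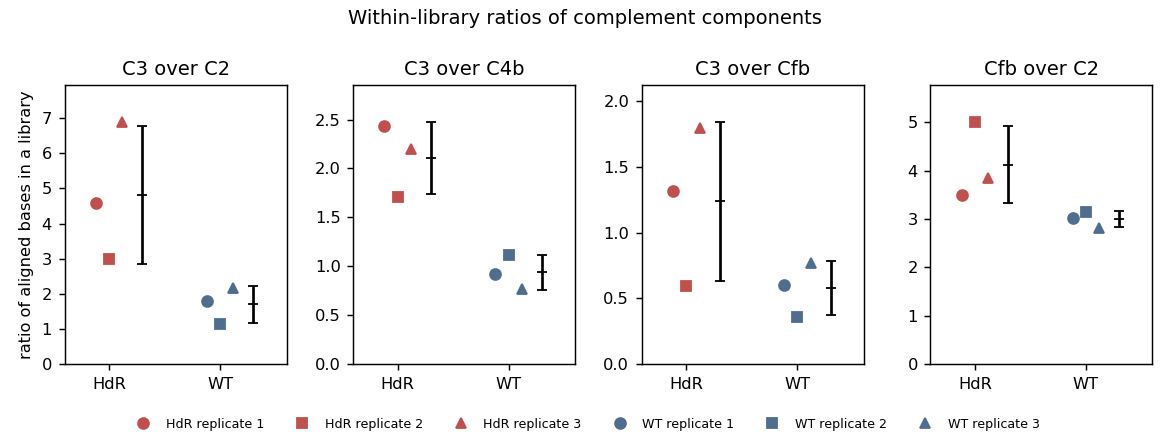
Ratio of aligned bases of paired complement components within each library (vertical axes, starting at 0) for 3 HdR (left) and 3 WT (right) samples, with mean and SD. C3 over C2 lies between 2.98 and 6.90 in HdR and between 1.13 and 2.17 in WT, and C3 over Cfb is the ratio of the 4 in which the genotypes overlap.

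Of the regulators, Cd55 was higher in every HdR sample, and Serping1 was lower in every HdR sample. Cd55, or decay-accelerating factor, is a membrane protein that takes C3 convertases apart (ENSMUSG00000026399.12, chromosome 1, 130439027 to 130462744, minus strand). It had 83.6, 61.5 and 59.8 bases per Mb in HdR samples, against 47.9, 53.3 and 38.6 bases per Mb in WT samples. The log2 change was 0.54 (SE 0.19, limma adjusted p = 0.0602). It passed with the replicate block (limma adjusted p = 0.0227), after length trend removal (0.69, limma adjusted p = 0.0290) and without WT replicate 2 (0.66, limma adjusted p = 0.0322). With scaling to library totals it was 0.22 (limma adjusted p = 0.417). Cd55 shares 5.5% of its 100-base stretches with the copy Cd55b, which stayed at or below 0.838 bases per Mb, and the antisense gene Gm16083 overlaps its first 169 bases.

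Serping1 encodes the C1 inhibitor, which blocks the proteases of C1 (ENSMUSG00000023224.12, chromosome 2, 84765387 to 84775444, minus strand). It had 179, 185 and 151 bases per Mb in HdR samples, against 215, 212 and 186 bases per Mb in WT samples. The genotypes were separated by a narrow margin, between HdR replicate 2 and WT replicate 3. The log2 change of -0.25 did not pass (95% confidence interval -0.61 to 0.11, limma adjusted p = 0.243), nor with the replicate block (limma adjusted p = 0.114). After length trend removal from its 1768 nt transcript it was -0.48 (limma adjusted p = 0.0344), and with scaling to library totals -0.57 (limma adjusted p = 0.0265).

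Cfp encodes properdin, the regulator that stabilises the alternative convertase and is known from leukocytes (ENSMUSG00000001128.7, chromosome X, 20925454 to 20931555, minus strand). It had 97.9, 127 and 57.5 bases per Mb in HdR samples, against 53.2, 71.8 and 43.7 bases per Mb in WT samples. HdR replicate 3 overlapped the WT samples, and in both genotypes replicate 2 was highest and replicate 3 lowest. The log2 change of 0.69 did not pass (SE 0.29, limma adjusted p = 0.0973). It passed with the replicate block (limma adjusted p = 0.00721), without HdR replicate 3 (1.01, adjusted p = 0.0285) and without WT replicate 2 (0.90, adjusted p = 0.0419). With the length trend removed it was 0.42 (limma adjusted p = 0.230). On the same chromosome Xist had 216 to 458 bases per Mb in HdR samples and 965 to 1591 in WT samples, and the part of sex in these values was not tested.

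The anaphylatoxin receptors differed in level. C5ar1, the receptor of C5a on myeloid cells (ENSMUSG00000049130.6, chromosome 7, 16246743 to 16259540, minus strand), had 8.18, 6.35 and 9.74 bases per Mb in HdR samples, against 5.70, 3.94 and 5.07 bases per Mb in WT samples. The genotypes did not overlap, and replicate 2 was lowest in both. These values stand for 74 to 141 read pairs of 300 bases per library, so counting error adds to their spread. The log2 change of 0.62 did not pass (SE 0.21, limma adjusted p = 0.0552). It passed with the replicate block (limma adjusted p = 0.0223) and was 0.34 with scaling to library totals (limma adjusted p = 0.330). C3ar1, the receptor of C3a (ENSMUSG00000040552.8, chromosome 6, 122847138 to 122856161, minus strand), had 114, 102 and 81.3 bases per Mb in HdR samples, against 85.4, 125 and 66.8 bases per Mb in WT samples. The genotypes overlapped fully around HdR values, with WT samples both the highest and the lowest. The log2 change of 0.13 did not pass (95% confidence interval -0.40 to 0.67, limma adjusted p = 0.680) and was -0.18 with scaling to library totals, -0.06 without WT replicate 3 and 0.46 after length trend removal.

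**Figure D3:**
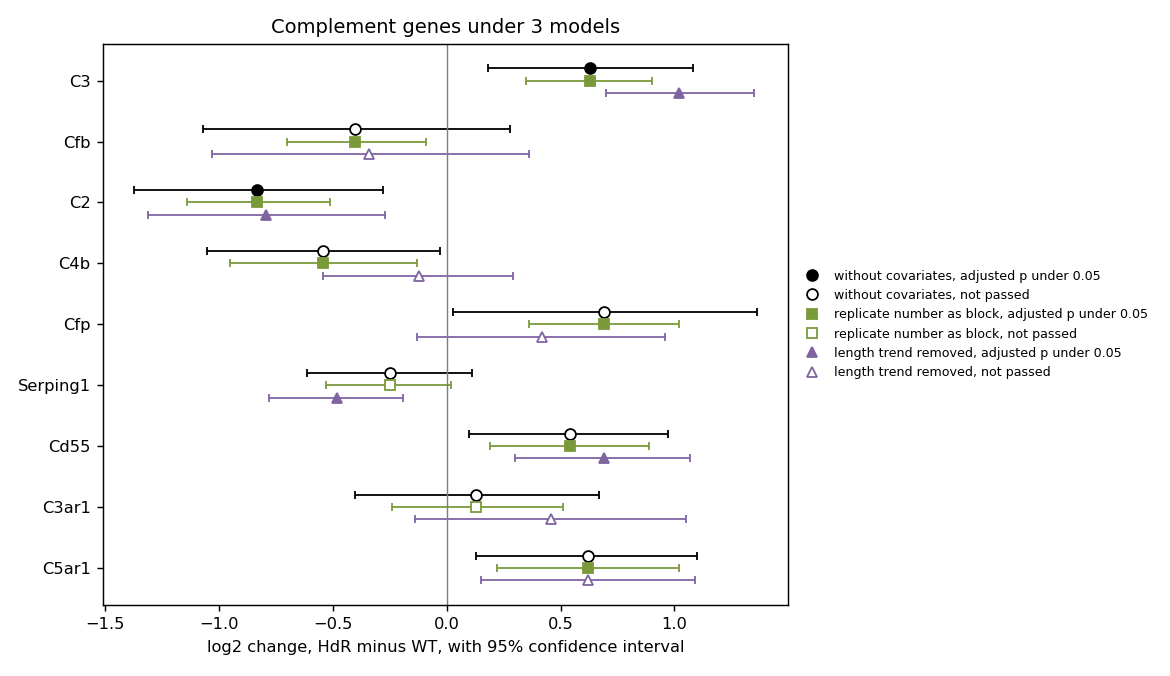
Log2 change (HdR minus WT, horizontal axis) of the 9 complement genes with its 95% confidence interval from limma without covariates, with the replicate number as a block and with the length trend removed. Filled symbols mark an adjusted p under 0.05, and C3 and C2 are filled in all 3 models, at 0.63, 0.63 and 1.02 for C3 and -0.83, -0.83 and -0.79 for C2.

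Levels of different genes can be compared per length, here as bases per Mb per kb of the longest annotated transcript. In HdR skin the order by mean was Serping1 (97.1 ± 10.2), Cfb (60.5 ± 23.9), Cfp (57.6 ± 21.4), C3 (34.9 ± 6.90), C3ar1 (23.0 ± 3.83), Cd55 (21.8 ± 4.23), C4b (15.7 ± 0.416), C2 (15.1 ± 4.17) and C5ar1 (3.18 ± 0.667). In WT skin it was Serping1 (116 ± 9.11), Cfb (77.2 ± 19.5), Cfp (34.4 ± 8.75), C2 (26.7 ± 5.32), C4b (23.7 ± 7.12), C3 (22.4 ± 3.35), C3ar1 (21.4 ± 6.88), Cd55 (14.9 ± 2.38) and C5ar1 (1.93 ± 0.350). Serping1 was the highest and C5ar1 the lowest in both genotypes. C3 was the fourth in HdR and the sixth in WT, and C2 the eighth in HdR and the fourth in WT. The length trend was not removed from these levels, so in these places genotype and length trend cannot be told apart. In HdR the samples of neighbours in this order were separate between C3 and C3ar1, Cd55 and C4b, and C2 and C5ar1. In WT they were separate between Serping1 and Cfb, Cfb and Cfp, and Cd55 and C5ar1, and all other neighbours overlapped.

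Of the other complement genes listed, 49 were in the table and 31 passed the filter on low values. Limma called 7 of these higher and 1 lower in HdR (median log2 change 0.08), beside 12.7% and 17.9% of all genes (30.6% in either direction). With the replicate block these were 10 and 4, beside 18.3% and 27.2% (45.5% in either direction). In both fits the total called is near the background. Cd59b, one of the 7, passed the filter only through its HdR samples and so had to differ, which leaves 6 higher without it. The membrane regulators Cd59a and Cr1l were higher. Cfd, the factor D protease that activates factor B, had the largest change of the 31 genes. Susd4, a membrane inhibitor, was the gene that was lower.

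Among 12 recognition genes 2 were higher, and with the replicate block 4 were higher and 2 lower. The genes lower with the block were C1s1 and Masp2, in which every HdR sample lay below every WT sample. C1s1, a protease of C1, averaged 104 ± 10.8 bases per Mb in HdR and 144 ± 18.3 in WT (log2 change -0.46, limma adjusted p = 0.0618, and 0.0240 with the block). Masp2, the lectin pathway protease, averaged 20.1 ± 9.05 in HdR and 35.4 ± 5.69 in WT (-0.89, limma adjusted p = 0.0675, and 0.0240 with the block), and Tardbp overlaps it on the other strand. Both are named after their values were seen. Fcna, a ficolin of the lectin pathway, had 6.77, 7.12 and 8.77 bases per Mb in HdR samples, against 2.08, 3.32 and 2.65 bases per Mb in WT samples (log2 change 1.22, limma adjusted p = 0.00877). The genotypes did not overlap, and the antisense gene Fcnaos overlaps 3365 bases of the locus. C1qa, a chain of C1q, had 321, 355 and 219 bases per Mb in HdR samples, against 136, 204 and 112 bases per Mb in WT samples (1.00, limma adjusted p = 0.0254), again without overlap. The other C1q chains did not pass: C1qb averaged 464 ± 163 bases per Mb in HdR and 246 ± 87.7 in WT (0.90, limma adjusted p = 0.0579, and 0.00182 with the replicate block), and C1qc 208 ± 41.4 in HdR and 154 ± 33.1 in WT (0.43, limma adjusted p = 0.144, and 0.0434 with the block). With the length trend removed from these short transcripts, C1qa was at 0.51 (limma adjusted p = 0.0796), C1qb at 0.44 and C1qc at 0.01. Without HdR replicate 1, HdR replicate 2, WT replicate 1 or WT replicate 3 C1qa did not pass (highest adjusted p = 0.0949).

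Of 4 other central and terminal components 1 was higher. Cfd had 249, 366 and 226 bases per Mb in HdR samples, against 91.4, 66.8 and 91.2 bases per Mb in WT samples (log2 change 1.73, SE 0.22, limma adjusted p = 0.00397; 1.20 after length trend removal). It passed under all 16 alternatives, which include each library left out in turn. Cfd is also known as adipsin, a product of fat cells. Of 6 adipocyte markers 5 were higher, beside 12.7% of all genes tested. Their summed level was 1901 to 2784 bases per Mb in HdR samples and 498 to 610.1 in WT samples. The part of fat cells in the Cfd values was not tested. Hc, the mouse gene of C5, was barely covered, at 0.559 to 1.94 bases per Mb in HdR samples and 1.25 to 1.48 in WT samples (-0.20, limma adjusted p = 0.544). The pore genes C6, C7, C8a, C8b and C8g did not pass the filter.

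Among 8 other regulators 3 were higher, Cd59b included, and 1 lower. Cd59a, which blocks the lytic pore, had 105, 157 and 129.8 bases per Mb in HdR samples, against 49.8, 71.4 and 50.9 bases per Mb in WT samples (log2 change 1.18, limma adjusted p = 0.0101). Cr1l, the mouse membrane regulator Crry, had 127, 151 and 119 bases per Mb in HdR samples, against 79.5, 105 and 76.1 bases per Mb in WT samples (0.61, limma adjusted p = 0.0341). The genotypes did not overlap in Cd59a or Cr1l, as in Cd55. Among the 8 other regulators 3, Cd59b included, had every HdR sample above every WT sample and 1 had every HdR sample below. Over all genes tested these shares were 20.9% and 30.7%, and the remaining regulators overlapped. The separation of Cd59b was fixed by the filter on low values, which leaves Cd59a and Cr1l above. With scaling to library totals Cd59a passed (0.86, limma adjusted p = 0.0180), and Cr1l (0.30, adjusted p = 0.158) did not. Cd59b was low, at 1.35 ± 0.258 bases per Mb in HdR and 0.609 ± 0.135 in WT (0.54, limma adjusted p = 0.0466; -0.02 after length trend removal), and it did not pass with scaling to library totals (0.39, adjusted p = 0.0924). Susd4 had 1.74 ± 0.141 bases per Mb in HdR and 3.48 ± 0.891 in WT (-0.69, limma adjusted p = 0.0334; -0.57 and adjusted p = 0.0811 after length trend removal). Clu, in which the genotypes overlapped, had 40.2 ± 7.28 in HdR and 66.1 ± 19.7 in WT. It was lower only with the block (-0.67, limma adjusted p = 0.0589, and 0.0065 with the block).

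Without WT replicate 1, Cd59a (limma adjusted p = 0.0525), Fcna (adjusted p = 0.0507) and C1qbp (adjusted p = 0.0660) lost their calls, and they passed without each of the other libraries. Cr1l did not pass without HdR replicate 1, HdR replicate 2, WT replicate 1 or WT replicate 3 (highest adjusted p = 0.141). Cd59b did not pass without WT replicate 1, 2 or 3 (adjusted p = 0.0627 to 0.166), and without an HdR library it could not be tested, as it did not pass the filter on low values. Susd4 did not pass when any one of the 6 libraries was left out (adjusted p = 0.0567 to 0.0968).

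Of 7 other receptors and C1q-binding genes 1 was higher, C1qbp, a mitochondrial protein that binds C1q, with 106 ± 14.2 bases per Mb in HdR and 56.9 ± 9.90 in WT (log2 change 0.89, limma adjusted p = 0.0136). With the replicate block C5ar2 was called too (0.91, limma adjusted p = 0.0514, and 0.0138 with the block). C5ar2 was low, at 1.17, 4.36 and 2.36 bases per Mb in HdR samples and 0.549, 1.02 and 0.877 in WT samples. Most of its WT values were under the filter of 1 base per Mb. The subunits of complement receptor 3 overlapped between the genotypes. Itgam averaged 53.8 ± 21.3 bases per Mb in HdR and 47.2 ± 7.41 in WT (0.10, limma adjusted p = 0.806; the annotated gene Gm49368 overlaps it by 55809 bases on its strand), and Itgb2 25.4 ± 4.68 in HdR and 28.5 ± 6.58 in WT (-0.16, limma adjusted p = 0.595).

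**Figure D4:**
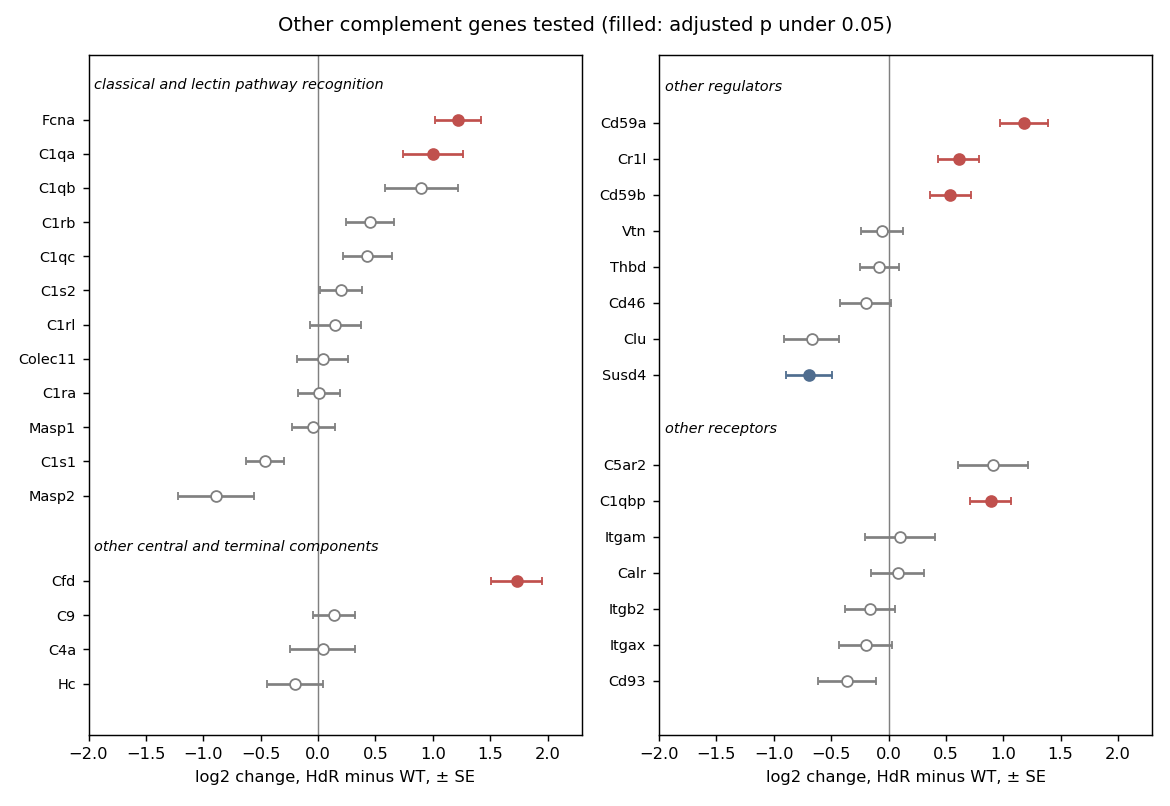
Log2 change (HdR minus WT, horizontal axes) with SE for 31 other complement genes tested, grouped by role. Filled symbols mark an adjusted p under 0.05: 7 genes to the right of 0, led by Cfd at 1.73, and Susd4 to the left at -0.69.

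Markers of cells that can express these genes also moved. Their counts stand beside 12.7% of all genes called higher and 17.9% called lower. In bulk skin fewer cells of a type and less RNA per cell cannot be told apart, and the part of cell composition in the complement values was not tested. Of 11 macrophage and monocyte markers 6 were higher (summed level 2284 to 2586 bases per Mb in HdR samples, 754 to 1519 in WT samples). Of 9 neutrophil markers 6 were tested and 5 were higher (698 to 3186 in HdR, the highest in replicate 2, and 142 to 198 in WT), with Elane at 0 in WT replicate 3, and 4 of 8 mast cell markers were higher (861 to 999.7 in HdR, 500.1 to 939 in WT). Fibroblast markers, 2 of 7 lower, summed to 5546 to 6982 in HdR and 5263 to 7458 in WT, and keratinocyte markers, 3 of 8 lower, to 7709 to 9675 in HdR and 10738 to 12609 in WT. All 8 hair follicle markers were lower (23.7 to 74.3 in HdR, 343 to 505 in WT), with Shh at 0 in HdR replicates 1 and 3, as were 2 of 5 endothelial markers (42.9 to 70.8 in HdR, 84.9 to 105 in WT). Of 5 skeletal muscle markers 2 were higher (2258 to 2679.7 in HdR, 1279 to 2159 in WT), as were 2 of 5 blood markers (627 to 867 in HdR, 283 to 532 in WT). The muscle markers did not move together: their median log2 change was -0.16. With the replicate block 2 of them were higher and 2 lower, beside 18.3% and 27.2% of all genes. Lymphocyte markers, 3 of 7 tested and 0 called, summed to 25.8 to 41.6 in HdR and 21.9 to 36.9 in WT, with Cd79a at 0 in WT replicate 2. Hepatocyte markers stood near 0, at a summed 1.42 to 2.35 in HdR and 0.955 to 2.07 in WT, with Apoa1, Ttr, Serpina1a and Fgb at 0 in some libraries. Some of these counts changed with the settings. After length trend removal the calls of blood and endothelial markers were lost, and 1 mast cell and 1 skeletal muscle marker were higher. In that fit 1 fibroblast and 1 keratinocyte marker were higher and 1 of each lower, and 6 of the 7 hair follicle markers tested were lower. With scaling to library totals 3 macrophage and monocyte and 4 neutrophil markers were higher, the mast cell calls were lost, and 5 fibroblast, 5 keratinocyte and 4 endothelial markers lower.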

How the data were processed

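Ear skin RNA of 3 HdR and 3 WT samples was sequenced on a NovaSeq instrument after NEBNext Ultra II library preparation, per the labels. GRCm38 is the build named in the submitters' processing notes, while aligner, counter, annotation and strand were not given in the sources used here. Deposited values are a coverage signal per gene, as the authors named it, and the scale was read from the values. As whole numbers they cluster on multiples of 300, the bases of a read pair: 1656 values equal 300, and 10.3% of values from 1 to 3000 are whole multiples of 300, against 0.333% if spread evenly. They are therefore treated as aligned bases, not as reads, and library totals equal 14.8 to 19.9 M such pairs.

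Libraries were scaled with TMM (trimmed mean of M values) factors of 0.792 to 1.19, trimming 30% by log ratio and 5% by mean level. A gene was tested where 3 or more libraries reached 1 base per Mb. limma 3.58.1 in R 4.3.3 was run in its robust trend form on log2(value + 1), with genotype as the one term, and two-sided p values were adjusted by Benjamini-Hochberg over all genes (threshold 0.05). The procedure was run on simulated data with independent noise, without a length trend or a pairing of libraries. Its error rate in libraries with those features was not tested. Transcript lengths (longest transcript), positions and overlaps came from GENCODE M21 on GRCm38, and 99% of the genes tested had a length. The length trend was a natural spline with 4 degrees of freedom on log2 length, removed from each library. Other alternatives covered the scaling (median of ratios, library totals, quantiles), no filter, a filter at 5 bases per Mb, a pseudocount of 0.1, voom with quality weights, the replicate number as a block, the block with the length trend removed, and each library left out in turn.

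The labels do not say that numbers pair the samples. With each genotype's mean subtracted, same-numbered HdR and WT libraries correlated across genes with r = 0.164, 0.416 and 0.366, all above 0.1. Of differently numbered libraries, HdR 3 with WT 1 had r = 0.161 and HdR 1 with WT 3 had 0.0985. The rest ranged from -0.378 to -0.161, so a pairing was not clear for replicate 1. The numbers were taken to pair the libraries, as a pattern of the data. The block was thus chosen from the values it is fitted to, and its calls are a description only.

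The members and gene lists were chosen with earlier results of these data known. All members were named. Of each list of other complement genes up to 4 called genes with the smallest p were named, and always C1qa, C1qb, C1qc, C4a, Hc, Cfd, Cr1l, Itgam and Itgb2. Cd59b, C1s1, Masp2, C5ar2 and Clu were named after their values were seen. A gene of the list of other regulators is not reported here, and counts are given without it. Of the sex-linked list Xist was analysed, and Y-linked genes were not analysed here.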

Additional observations from a re-analysis of the deposited data

How the results depend on the processing

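Of 144 values of the 9 complement genes under 16 alternatives each, 142 kept their sign. The exceptions were C3ar1 with total scaling (-0.18) and without WT replicate 3 (-0.06; -0.06 to 0.39 over the libraries left out). The replicate block and the changes of filter cannot move the log2 change of these genes. Those values repeat other fits, so the count of kept signs overstates how far the alternatives tested them. Counts of the 9 genes called higher and lower by limma depended on the settings, against 1 and 1 as reported. They were 3 higher with median-of-ratios scaling, 0 higher and 3 lower with total scaling, 2 (Cd55 and C5ar1, not C3) and 2 (C2 and Serping1) with quantile normalisation, 0 and 0 without the filter (3 and 1 at an unadjusted p under 0.05), 4 and 4 with voom and 4 and 3 with the replicate block. They were 2 and 2 with the length trend removed, and 3 and 2 with the block added to it. With total scaling 0 were higher at an unadjusted p under 0.05. Leaving out each library gave 0 to 2 higher and 0 to 1 lower. These counts stand beside those over all genes, of which 15049 were tested in the main fit. Over all genes quantile normalisation gave 2363 higher and 2084 lower, and no filter 1017 and 1127. Voom gave 3408 and 4647, and the block with length removal 2460 and 2172. Leaving out a library gave 197 to 2657 higher and 230 to 3359 lower over all genes. Many calls with voom are thus not particular to the 9 genes. The block, which pairs the libraries by number, changed the calls of Cfb, C4b, Cfp, Cd55 and C5ar1 and of C1qb, C1qc, C1s1, Masp2, C5ar2 and Clu, and no other call among the genes named.

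Of the other complement genes 7 were higher and 1 lower as reported. With total scaling these were 5 and 4, without the filter 5 and 0, under a stricter filter of 5 bases per Mb 0 lower, with voom 3 lower, with the block 4 lower, with the length trend removed 0 lower and with block and length removal 3 lower. At an unadjusted p under 0.05 limma had 4 lower without the filter, 4 with the length trend removed and 3 under the stricter filter. Leaving out a library gave 1 (without WT replicate 1) to 9 higher and 0 to 1 lower. Over all genes the counts higher and lower were 1017 and 1127 without the filter and 1727 and 2422 under the stricter filter. They were 3408 and 4647 with voom and 2460 and 2172 with block and length removal. Cd59b turned from 0.54 to -0.02 with the length trend removed, with and without the block. Signs also turned for genes that had not passed: C4a with total scaling (-0.21) and voom (-0.12) and, with a library left out, from -0.25 to 0.20 (-0.05 without HdR replicate 1, -0.03 without HdR replicate 3), Hc with the length trend removed (0.22, with and without the block), Itgam with total scaling (-0.21), voom (-0.02) and from -0.09 to 0.49 with a library left out (-0.09 without HdR replicate 1 or 2, -0.01 without WT replicate 3), and Itgb2 with quantile normalisation and without WT replicate 2 (0.02 each; -0.31 to 0.02 over the libraries left out).

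Over all genes 1904 were higher and 2701 lower. The counts were 917 and 4305 with total scaling, 1017 and 1127 without the filter, 3408 and 4647 with voom, 4094 lower with the block and 1263 lower with the length trend removed. Leaving out a library gave 197 to 2657 higher and 230 to 3359 lower, the lowest without WT replicate 1. The difference in length slope between HdR and WT was -0.318, -0.115 without the filter and -0.386 to -0.264 with a library left out. The cause of these differences between settings was not tested. Depth limits the precision of low genes: a library held 74 to 141 read pairs for C5ar1, 34 to 115 for C4a and 8 to 32 for Hc.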
